A study of Rattus norvegicus with 11 samples.

Results

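The comparison is between REF52 cells, an established line of rat embryo fibroblasts, that carried an adenovirus expressing the transcription factor E2F1 and the same cells with a control adenovirus (CMV), when all had been given serum together with LY294002, a chemical inhibitor of phosphoinositide 3-kinase. It rests on the 4 arrays whose titles give this medium, 2 with E2F1 and 2 with the control virus, out of 11 in the series. All cells had been grown in 10% serum and then kept in 0.25% serum for 48 hours before the virus was added. The other groups were E2F1 and control virus cells given serum without the inhibitor (2 arrays each) and E2F1 and control virus cells left in deprivation medium (2 arrays and 1 array). RNA was measured on Affymetrix rat arrays from 6 µg of total RNA per sample. REF52 is 1 line, so the comparison speaks for that line, and neither the dose of LY294002 nor the time of harvest is given in the sources used here. Nothing in the labels says that array mates are separate cultures, so a p-value reflects array-to-array spread, pooled over all groups and possibly technical. In RNA of a whole culture, fewer cells with a transcript and less of it per cell cannot be told apart.

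E2F1 pairs with a DP protein on the promoters of genes for S phase entry and DNA synthesis, and is held inactive by the retinoblastoma protein until cyclin-dependent kinases phosphorylate it. A further layer of cell cycle genes, those of mitosis, is controlled largely through a different promoter element, the cell cycle genes homology region (CHR), which is bound by complexes containing LIN proteins and MYBL2. Phosphoinositide 3-kinase acts through the kinase Akt, which restrains FOXO transcription factors, and serum growth factors signal through it. The series title sets proliferation against cell death as the question behind the E2F1 comparisons.

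The values were deposited signal intensities on a linear scale, and were compared as log2(signal + 16); every log2 change below is on that scale, E2F1 over control virus, with its standard error. No fold is given where either group had a mean signal under 32, since there the added 16 sets part of the size. A gene was represented by its brightest probe set (among the largest changes, by its brightest called one), and called higher or lower when the adjusted p of limma, a linear model with a shared estimate of spread, was under 0.05 over 15866 probe sets. No detection calls were used. The second arrays with LY294002 stood apart from the first in both groups. The second E2F1 array had a difference of 0.899 on the log2 scale between 3' and 5' control probe sets, a sign of RNA quality, against 0.264 on the first and 0.19 and 0.331 on the control virus arrays. Array mates correlated at 0.959 in the E2F1 group and 0.963 in the control virus group with LY294002, and between 0.977 and 0.984 in the other groups with 2 arrays. The log2 difference between mates had a standard deviation of 0.62 and 0.589 in these 2 groups. In the others it was between 0.389 and 0.456, so the spread shared by all groups understates, on average, that of the compared arrays. Signals are therefore given array by array for the genes described. Fibroblast markers were bright: 7 of 15 measured ones exceeded a signal of 1000 on all 4 arrays, and their summed signal was 89190 and 93080 on the E2F1 arrays, against 121900 and 101900 on the control virus arrays. Markers of other cell types summed to 3033 and 3027 over 33 genes on the E2F1 arrays, against 2882 and 2404. E2f1 itself has no uniquely annotated probe set, and the introduced gene is not analysed here.

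E2F1 raised 600 of 15866 probe sets (3.78%) and lowered 258 (1.63%), together 858 (5.41%), of which 489 rose and 146 fell at least 2-fold. By gene, 475 of 10411 rose (4.56%) and 169 fell (1.62%). The median change over all genes was -0.03. Every one of the 600 and of the 258 had signals that did not overlap between the groups. All had the same direction in the first and the second numbered pair of arrays. The calls rest on these same arrays, and signals that do not overlap have the same direction in both pairs. Neither trait is thus a separate check of the calls, and its share over all probe sets was not counted here. The pair medians were 1.31 and 1.54 for those called higher and -1.08 and -1.12 for those called lower. Of 496 genes with a probe set called higher, 119 stood in one of 40 lists of pathways and structures. Of 198 genes with one called lower, 26 did, and of all 10411 genes 1006 did. The lists were chosen with earlier results of these data known. The calls depend on the spread taken from all groups: without the second E2F1 array with LY294002 limma called 192 probe sets, and fitting the 4 compared arrays alone it called 0, with 2070 at an unadjusted p under 0.05. No call reversed its direction in any of the 23 settings tried. Since the signals of called probe sets did not overlap between the groups, only the normalization settings and the RNA quality covariate could have reversed one.

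**Figure D1:**
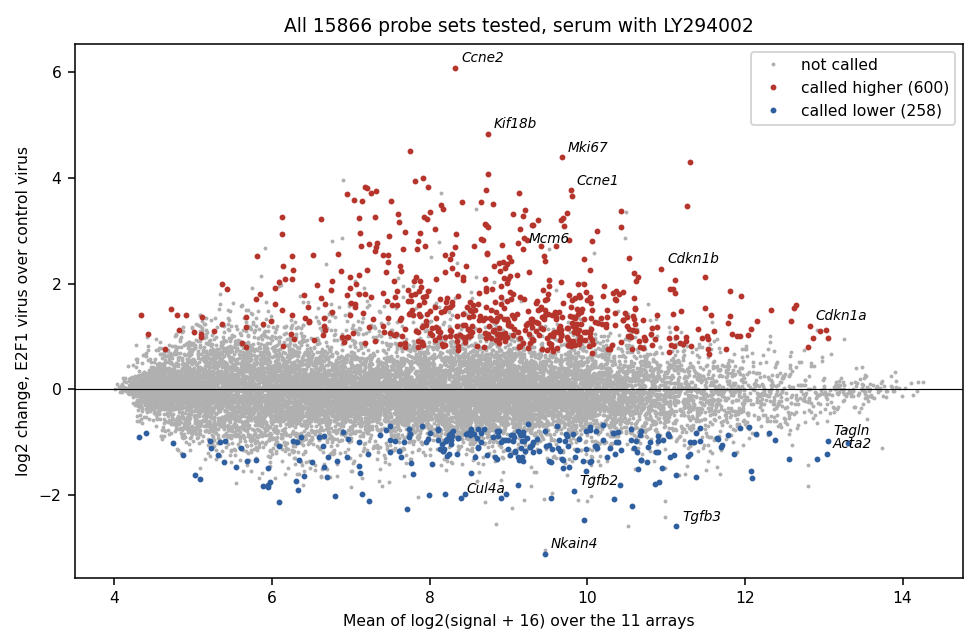
Each point is 1 of 15866 probe sets, with its mean log2(signal + 16) over the 11 arrays on the horizontal axis and its log2 change with LY294002, E2F1 over control virus, on the vertical axis. Called probe sets are red (600, higher) and blue (258, lower), and they lie along the whole range of levels, with the largest changes above 4 among the higher ones.

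Promoters of origin licensing genes that rose are shown first, because most of them hold a motif that E2F proteins are known to bind. Of 9 called genes of origin licensing and the MCM helicase, 8 have a RefSeq promoter window (assembly GRCr8, 250 bases before the start to 50 after), and 7 of these hold an E2F motif. The motif was searched on both strands as TTTCCCGC, TTTGGCGC, TTTCGCGC or TTTGCCGC, and overlapping matches were counted separately. Below are the stretches around the matches of all 7, written along the gene's strand with the matches in capitals.
Mcm2 (chr4:122918072-122918133, minus strand): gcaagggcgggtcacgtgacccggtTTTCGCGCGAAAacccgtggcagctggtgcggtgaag
Mcm3 (chr9:30733701-30733777, minus strand): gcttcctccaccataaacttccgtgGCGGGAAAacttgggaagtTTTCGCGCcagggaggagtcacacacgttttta
Mcm5 (chr19:13488575-13488837, plus strand): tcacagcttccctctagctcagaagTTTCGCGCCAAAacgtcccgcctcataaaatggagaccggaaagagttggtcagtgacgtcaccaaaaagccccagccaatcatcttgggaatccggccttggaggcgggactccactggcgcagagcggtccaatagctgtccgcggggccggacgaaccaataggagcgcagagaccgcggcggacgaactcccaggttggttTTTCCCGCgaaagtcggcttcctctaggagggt
Mcm6 (chr13:42404455-42404516, minus strand): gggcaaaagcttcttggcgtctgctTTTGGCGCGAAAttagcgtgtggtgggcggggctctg
Mcm7 (chr12:22163198-22163428, minus strand): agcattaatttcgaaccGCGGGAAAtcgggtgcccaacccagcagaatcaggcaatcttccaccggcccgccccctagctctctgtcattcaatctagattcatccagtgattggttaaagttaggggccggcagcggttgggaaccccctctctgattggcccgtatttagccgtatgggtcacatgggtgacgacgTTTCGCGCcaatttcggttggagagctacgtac
Gins1 (chr3:160184870-160184931, plus strand): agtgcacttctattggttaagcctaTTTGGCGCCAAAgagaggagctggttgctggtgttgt
Gins3 (chr19:9434683-9434740, minus strand): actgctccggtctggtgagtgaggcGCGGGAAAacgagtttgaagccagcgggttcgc
In Mcm2, Mcm6 and Gins1 the matches lie on the strands in opposite directions and overlap, and the same holds for the first pair in Mcm5. An E2F motif was present in 80.0% of promoters on that list (8 of 10 genes), in 30.4% of those of the polymerase list (7 of 23), in 9.35% of genes called higher (39 of 417), in 1.23% of genes called lower (2 of 162) and in 3.67% of all tested genes with a promoter (316 of 8610). An E2F motif stands in 2.14% of all 33469 rat windows. A match describes the sequence and is neither a binding site nor a cause.

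Many but not all mitotic genes that rose had the CHR (TTTGAA, both strands) in the window. Among called genes with a window it was in 9 of 13 genes of the mitotic kinase and cyclin B list. For called spindle and kinetochore genes the count was 7 of 13. The windows of Aurka, Melk, Kif18b and Kif20a, among others, lacked the CHR. Among the named mitotic genes whose window holds it, 7 are shown around their matches, in capitals, which read TTCAAA on the opposite strand.
Mki67 (chr1:199952662-199952735, minus strand): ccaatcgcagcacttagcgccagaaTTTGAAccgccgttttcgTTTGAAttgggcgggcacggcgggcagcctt
Top2a (chr10:84473085-84473140, minus strand): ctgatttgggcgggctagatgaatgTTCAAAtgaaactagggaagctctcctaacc
Ncapd2 (chr4:159677979-159678034, minus strand): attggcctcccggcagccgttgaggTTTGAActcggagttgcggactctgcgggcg
Bub1b (chr3:126017038-126017093, plus strand): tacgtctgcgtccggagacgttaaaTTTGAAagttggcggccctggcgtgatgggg
Espl1 (chr7:135302608-135302663, plus strand): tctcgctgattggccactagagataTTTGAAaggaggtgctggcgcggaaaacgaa
Tacc3 (chr14:81289710-81289765, minus strand): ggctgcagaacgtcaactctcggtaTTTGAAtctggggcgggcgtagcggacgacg
Spc25 (chr3:74396745-74396800, minus strand): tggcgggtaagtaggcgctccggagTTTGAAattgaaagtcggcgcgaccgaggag
The CHR was found in 61.1% of promoters of mitotic kinases and cyclin B (11 of 18), in 56.2% of those of spindle and kinetochore genes (9 of 16), in 18.7% of genes called higher, in 11.1% of those called lower and in 12.5% of all tested genes. Of all rat windows 18.3% hold it. For these mitotic lists the E2F motif was found in 5.56% and 6.25%. A CCAAT box (CCAAT) occurred in 47.5% of genes called higher, 40.1% of those called lower and 38.8% of all tested genes, and in 37.5% of all rat windows. The FOXO motif (GTAAACA) occurred in 2.4%, 3.09% and 2.43% of these gene sets and in 3.78% of all rat windows. Promoters had a median GC content of 63.5% in genes called higher, 61.7% in those called lower and 60.0% in all. The window of Tgfb3, the gene with the largest fall among those with a promoter entry, is shown whole and holds none of the E2F, CHR and CCAAT motifs. The windows of Kif18b and Cdca5l1, which rose, hold none of them either.
Tgfb3 (chr6:111456897-111457196, minus strand): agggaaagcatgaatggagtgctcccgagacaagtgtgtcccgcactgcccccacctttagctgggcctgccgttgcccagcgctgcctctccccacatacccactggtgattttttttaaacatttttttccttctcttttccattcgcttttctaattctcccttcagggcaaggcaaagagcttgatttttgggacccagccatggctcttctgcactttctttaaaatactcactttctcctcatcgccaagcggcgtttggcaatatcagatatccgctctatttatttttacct

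**Figure D2:**
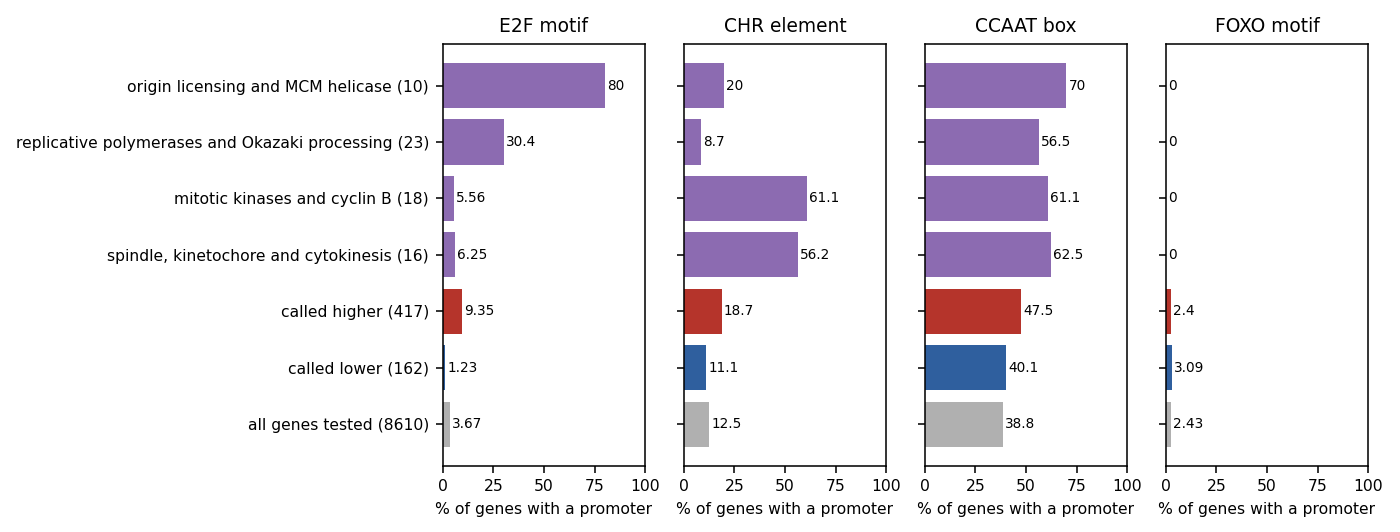
Bars give the percentage of genes with a RefSeq promoter whose window holds the E2F motif, the CHR element, the CCAAT box or the FOXO motif, for 4 gene lists, genes called higher, genes called lower and all genes tested, with the number of genes in brackets. The E2F motif peaks at 80.0% in the licensing list and the CHR at 61.1% and 56.2% in the mitotic lists.

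The cyclin E genes, whose products partner Cdk2 at S phase entry, were among the largest changes. Ccne2 had signals of 1902 and 2044 on the E2F1 arrays, against 5.11 and 24.8 on the control virus arrays, and rose by 6.08 ± 0.71 (limma adjusted p = 0.008387). The control virus mean was under 32, so no fold is given. Ccne1 had 2291 and 3236 in E2F1 cells, against 242 and 141 in control virus cells, a rise of 13.6-fold (3.77 ± 0.29, adjusted p = 0.003182). Both arrays of E2F1 cells lay above both control virus arrays for each cyclin. Of 10 measured genes in the list of cyclins and G1/S kinases 5 rose and 0 fell, the median being 0.77. Usp1 and Cks2, which are neither cyclins nor kinases, are among the 5. Usp1, the deubiquitinase of the Fanconi pathway, had 1514 and 1999 against 183 and 149 and rose 9.69-fold. Cks2, a binding partner of cyclin-dependent kinases, had 4314 and 2683 against 411 and 372 and rose 8.39-fold. Ccnd1, a D-type cyclin, was not called and had 3723 and 1570 in E2F1 cells against 3474 and 3135 in control virus cells (-0.45 ± 0.36, adjusted p = 0.5435).

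The E2F family and its partners rose too, 6 of 9 measured genes and 0 falling, with a median of 1.01. Mybl2, the MYB protein of the complex that acts on mitotic promoters, had 827 and 1543 in E2F1 cells against 110 and 125 in control virus cells, a rise of 8.60-fold (3.10 ± 0.34, adjusted p = 0.007862). The repressor E2f8 rose by 2.70 ± 0.53, with signals of 320.0 and 365 against 72.6 and 18.2. Tfdp1, the DP subunit that E2F1 needs to bind DNA, had 1857 and 2442 against 791 and 756. Rb1, the retinoblastoma protein, had 456 and 527 against 212 and 262 (1.01 ± 0.17, adjusted p = 0.02227). Without the second E2F1 array 2 of these 9 genes were called.

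Of 7 measured inhibitors of cyclin-dependent kinases 3 rose and 0 fell, with a median of 1.61. Cdkn1b (p27), which FOXO factors are known to induce, had 2693 and 7875 in E2F1 cells, against 864 and 1012 in control virus cells, a rise of 4.86-fold (2.28 ± 0.44, adjusted p = 0.03019). The second E2F1 array carried the higher value, and by pairs the change was 1.62 and 2.94. Cdkn2c (p18) had 2746 and 4786 against 610.4 and 650.5 and rose 5.64-fold. Cdkn1a (p21), a p53 target, had 8193 and 11030 against 4879 and 3518 and rose 2.29-fold (1.20 ± 0.23). Its other probe set overlapped between the groups, with 3311 and 1660 against 2155 and 896. That one was not called (0.75 ± 0.44, limma adjusted p = 0.3778). Cdkn3 was high in both E2F1 arrays, 981 and 523 against 127 and 5.98, but missed the threshold (adjusted p = 0.05393). Cdkn2b (p15) had 358 and 94.1 against 1170.0 and 365 and was not called (-1.73 ± 0.65, adjusted p = 0.1745). The pair medians of the list, 0.80 and 2.42, show that the second pair of arrays moved further.

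Replication genes rose in each of the lists that hold them. Of 13 measured genes of origin licensing and the MCM helicase, the motor that unwinds DNA at origins, 9 rose and 0 fell (median 1.81). Mcm6 had 1244 and 1302 in E2F1 cells against 228 and 155 in control virus cells, a rise of 6.30-fold (2.66 ± 0.43, adjusted p = 0.02009). Mcm4 had 990 and 1006 against 161 and 185, and Mcm5 849 and 981 against 198 and 164. Gins3, a subunit of the GINS complex that activates the helicase, had 309 and 257 against 75.1 and 26.0. Mcm2 changed least among the called members, with 847 and 701.5 against 390 and 302 (1.13 ± 0.22). Without the second E2F1 array, 1 of the 13 genes was called, though the median was 1.87. With the RNA quality difference as a covariate, 4 were called.

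Of 25 genes of the replicative polymerases and Okazaki fragment processing, 16 rose and 0 fell (median 1.34). The count was 7 without the second E2F1 array and 8 with the RNA quality covariate. Pola2, a subunit of the polymerase alpha that starts new strands, had 406 and 382.5 in E2F1 cells against 16.1 and 13.1 in control virus cells, at the level of the offset (3.75 ± 0.28, adjusted p = 0.003061). Fen1, the flap nuclease, had 1305 and 1235 against 178.5 and 177, a rise of 6.64-fold. Rpa2, a subunit of the single-strand binding protein, had 638 and 613.5 against 90.6 and 111 and rose 5.52-fold. Pcna, the sliding clamp, had 6121 and 7939 against 1414 and 2540. These groups did not overlap for any of the genes named here. In nucleotide synthesis 4 of 19 genes rose and 0 fell, with a median of 0.47, and 2 were called without the second E2F1 array. Dut, which removes dUTP, had 3460.0 and 2675 against 629.7 and 670.1 and rose by 2.20 ± 0.38. Rrm1, the large ribonucleotide reductase subunit, had 1362 and 1108 against 418.5 and 247 and rose 3.68-fold. Tyms, thymidylate synthase, had 499.5 and 248 against 111 and 72.5 and rose 3.48-fold.

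Of 19 genes of replication chromatin and histone chaperones 12 rose and 0 fell (median 1.28). Leaving out the second E2F1 array gave 5 calls, and the RNA quality covariate gave 7. Chaf1a, a subunit of the CAF-1 assembly complex, had 693.5 and 845 against 28.7 and 37.0 (3.99 and 4.02 on the log2 scale in the first and second pair, adjusted p = 0.008387). Asf1b, a histone chaperone, had 1173 and 1348 against 77.9 and 76.3, a rise of 13.7-fold. Lmnb1, lamin B1, had 2477 and 1939 against 459 and 318. Ezh2, the histone methyltransferase of Polycomb, had 1376 and 998 against 378 and 393. All values of E2F1 cells exceeded those of control virus cells.

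Recombination and Fanconi repair, which mends broken forks, had 7 of 15 genes called higher and 1 lower (median 1.02). Brca2 had 510.3 and 360 in E2F1 cells against 24.3 and 17.8 in control virus cells (3.59 ± 0.22, adjusted p = 0.001574). Ube2t, the ubiquitin enzyme of the Fanconi pathway, had 910.0 and 933 against 77.1 and 66.3, a rise of 10.7-fold. Bard1, the partner of Brca1, had 203 and 74.3 against 7.04 and 10.1. The gene that fell was Rad52, a recombination mediator, with 57.2 and 66.5 against 118 and 182.5 (-1.07 ± 0.25, adjusted p = 0.04878). In the list of checkpoint kinases and CDC25 phosphatases, which also holds other genes, 3 of 12 rose and 0 fell. Cdc25b, a phosphatase that activates Cdk1, had 1327 and 1492 against 185 and 134. Mdc1, a mediator of the DNA damage signal, had 1178 and 958 against 129 and 139.5. Dclre1b had 449 and 619 against 132 and 203.5. None of the 3 is a checkpoint kinase.

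The list of mitotic kinases and cyclin B and that of spindle, kinetochore and cytokinesis genes had the highest medians of the 40. Of 20 genes in the first list, which also holds genes that are neither, such as Espl1, 14 rose and 0 fell (median 2.56). Of 19 spindle, kinetochore and cytokinesis genes 15 rose and 0 fell (median 2.76). Kif18b, a kinesin of the mitotic spindle, had 1811 and 1685 in E2F1 cells against 106 and 15.1 in control virus cells (28.6-fold, 4.84 ± 0.78, adjusted p = 0.02003), the second control signal lying under the added 16. Mki67, the proliferation antigen Ki-67, had 2532 and 3205 against 194 and 72.7, a rise of 21.0-fold. Tacc3, a spindle protein, had 895.5 and 593.5 against 89.8 and 9.98. Espl1, the separase that cuts cohesin, had 1440 and 758 against 108 and 50.8. Top2a, the topoisomerase that separates sister chromatids, had 3648 and 1870 against 264 and 136.5, and Aurka, the Aurora A kinase, 614 and 347 against 78.3 and 8.51. On the second control virus array several of these signals were lower than on the first, and the second E2F1 array was the lower one for Espl1, Top2a, Aurka and Tacc3. Of the condensin, cohesin and mitotic chromatin genes 4 of 12 rose and 0 fell (median 0.58), and 2 were called without the second E2F1 array. Without the second E2F1 array 3 of the 20 mitotic kinases and 2 of the 19 spindle genes were called, though the medians were 2.77 and 2.90.

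**Figure D3:**
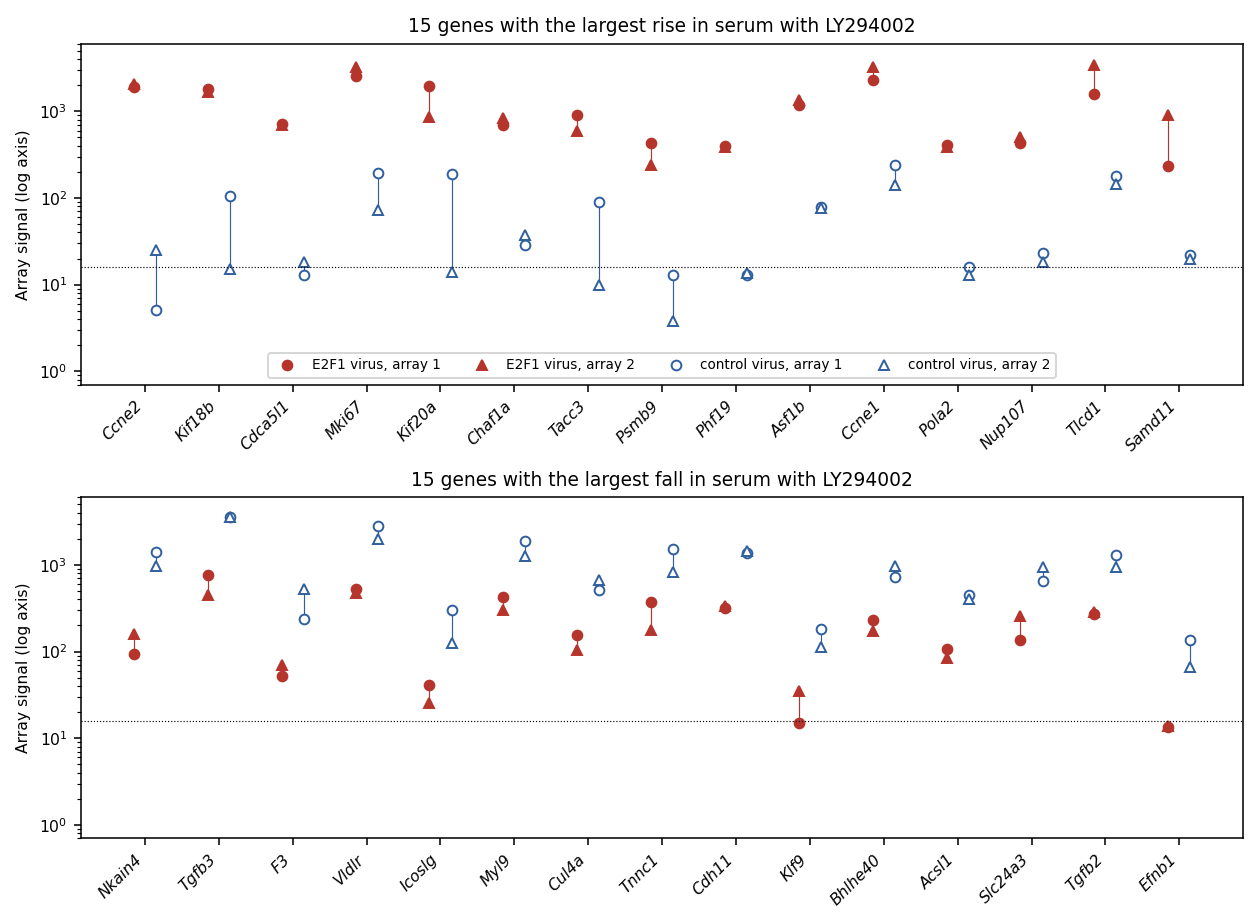
Signals on each of the 4 arrays with LY294002 (log axis) are plotted for the 15 genes with the largest rise and the 15 with the largest fall among called genes; red filled symbols are E2F1 virus, blue open symbols control virus, circles the first and triangles the second array, and the dotted line marks the added 16. The E2F1 symbols lie above every control symbol for each rising gene and below for each falling one, as the choice of the genes required. Genes also needed a mean signal of at least 100 in the brighter group. Several control signals in the upper panel lie at or under the dotted line.

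Of 18 measured BCL2 family genes 0 rose and 1 fell, Bnip3, a hypoxia-responsive mitochondrial protein, with 406 and 278 in E2F1 cells against 715 and 635 in control virus cells (-0.97 ± 0.22, adjusted p = 0.04471). Of 28 genes of the apoptosome, caspases and death receptors 0 rose and 1 fell, the co-chaperone Bag3. Over all genes 4.56% rose and 1.62% fell, and without the second E2F1 array 0 genes of these 2 lists were called. Apaf1, the scaffold of the apoptosome and a known E2F1 target in other cells, had 301 and 222 against 379 and 244, overlapping between the groups (-0.22 ± 0.26, adjusted p = 0.6855). Bcl2l11 (Bim) had 518 and 786 against 591 and 608 (0.09 ± 0.22, adjusted p = 0.8744). Among 17 p53 targets Cdkn1a and Ppm1d, a phosphatase of the p53 pathway, rose and Ddb2, a nucleotide excision repair gene, fell; 0 of the 17 were called without the second E2F1 array. The other probe set of Ddb2 overlapped between the groups and was not called (-0.18 ± 0.29, limma adjusted p = 0.7984). Mdm2, which degrades p53, had 4091 and 2003 against 2248 and 1795 and was not called (0.51 ± 0.31).

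Of 32 PI3K, Akt and mTOR genes limma called 0 in either direction (3 at an unadjusted p under 0.05, median -0.16). The smallest p belonged to Foxo3, with 459 and 683 against 1009 and 1033 (-0.85 ± 0.22, adjusted p = 0.07135). FOXO targets had 28 measured genes, of which Cdkn1b rose and Bnip3 fell, where 4.56% of all genes rose and 1.62% fell. Of 32 serum-induced early genes Nr4a3, an orphan nuclear receptor, rose, with 1172 and 3891 against 340 and 243. Its other probe set had 148 and 131 against 130 and 88.6 and was not called (0.33 ± 0.34, limma adjusted p = 0.6505). Zfp36, which destabilises cytokine RNAs, fell, with 453 and 632.5 against 1357 and 1854. With the RNA quality covariate 0 genes of this list were called higher and 1 lower. Fos had 119 and 393 against 751 and 1272 and was not called (-2.08 ± 0.84, adjusted p = 0.2047). Of 13 AMP-activated kinase genes limma called 0 (4 at an unadjusted p under 0.05), Prkaa2, a catalytic subunit, having 26.7 and 85.0 against 10.8 and 17.7. Irs2, an adaptor between insulin receptor and phosphoinositide 3-kinase, had 427 and 900.5 against 699 and 1022.

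Among falling genes Nkain4, a membrane protein, had 93.4 and 158 in E2F1 cells against 1414 and 975 in control virus cells, an 8.63-fold fall (-3.11 ± 0.62, adjusted p = 0.03262). Tgfb3, the ligand TGF-beta 3, had 763.5 and 444 against 3613 and 3587, a 6.04-fold fall (-2.60 ± 0.34, adjusted p = 0.01257), and Tgfb2 275 and 285 against 1301 and 935, a 3.78-fold fall. In the TGF-beta and BMP list 4 of 40 genes fell and 1 rose, Inhbb; without the second E2F1 array 1 was called, lower. Smad3, the intracellular mediator of that signal, had 483 and 439 against 902 and 1240. F3 (tissue factor), the starter of coagulation, had 51.8 and 70.8 against 234.5 and 532, and Vldlr, a lipoprotein receptor, had 528 and 471 against 2821 and 1968. Cdh11, a cadherin of mesenchymal cells, had 319 and 334 against 1371 and 1439. Cul4a, a ubiquitin ligase scaffold, had 154 and 104 against 507 and 670.0.

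Contractile and focal adhesion genes had 5 of 39 called lower and 0 higher, with a median of -0.44. Without the second E2F1 array, or with the RNA quality covariate, 1 of the 39 was called lower, while the median was -0.44 in each case. Myl9, a myosin light chain, had 428 and 299 in E2F1 cells against 1897 and 1274 in control virus cells, a 4.20-fold fall (-2.07 ± 0.34, adjusted p = 0.02107). Tpm1, a tropomyosin, had 2260 and 1978 against 6123 and 6284, a 2.92-fold fall, while Acta2, smooth muscle actin, had 4824 and 4393 against 12630 and 9155. Tagln had 5505 and 5844 against 10790 and 11680. Of the other probe sets of Tpm1, 3 were called lower (-1.04, -1.62 and -1.60), and those with changes of 0.02 and -0.17 had signals near or under the added 16 on all 4 arrays. Of 54 collagens and matrix glycoproteins 2 fell, Col8a1 and Sparc, and 0 rose (median -0.46), where 1.62% of all genes fell and 4.56% rose. That median was -0.77 without the second control virus array and -0.24 without the first, and 0 of the 54 were called without the second E2F1 array. Sparc, a matrix glycoprotein, had 5527 and 4953 against 12800 and 8867. Timp1, an inhibitor of matrix proteases, rose 2.05-fold, with 5874 and 7812 against 3321 and 3280.

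Sterol and fatty acid synthesis had 1 of 34 genes called lower, Acly, which makes acetyl-CoA from citrate, and a median of -0.56 that came from the first pair of arrays (-1.10) and not the second (0.11). Of 17 antigen processing genes 2 rose and 0 fell (median 0.13): the immunoproteasome subunit Psmb9 and the peptide transporter Tap1. Psmb9 had 433 and 239 against 12.9 and 3.76, and Tap1 had 337 and 209.5 against 22.6 and 57.1. Of 28 interferon response genes Irf1 rose, and over all genes 4.56% rose and 1.62% fell. In the ATF4 list 5 of 33 genes rose and 1 fell, but without the second E2F1 array, or with the RNA quality covariate, 0 were called. Among the 5 was Psat1, a serine synthesis enzyme, with 1498 and 1301 against 294 and 575. Gar1 and Nop56, of the box H/ACA and box C/D ribonucleoproteins, rose among 3 of 37 ribosome biogenesis genes, of which 1 was called without the second E2F1 array. Cytosolic ribosomal proteins (39), proteasome subunits (29) and respiratory chain subunits (65) had 0 calls by limma, with medians between -0.04 and 0.09 and 0, 6 and 6 genes at an unadjusted p under 0.05. The ribosomal protein median moved with the arrays used, being -0.39 without the second E2F1 array, 0.34 without the first and -0.46 with the RNA quality covariate.

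**Figure D4:**
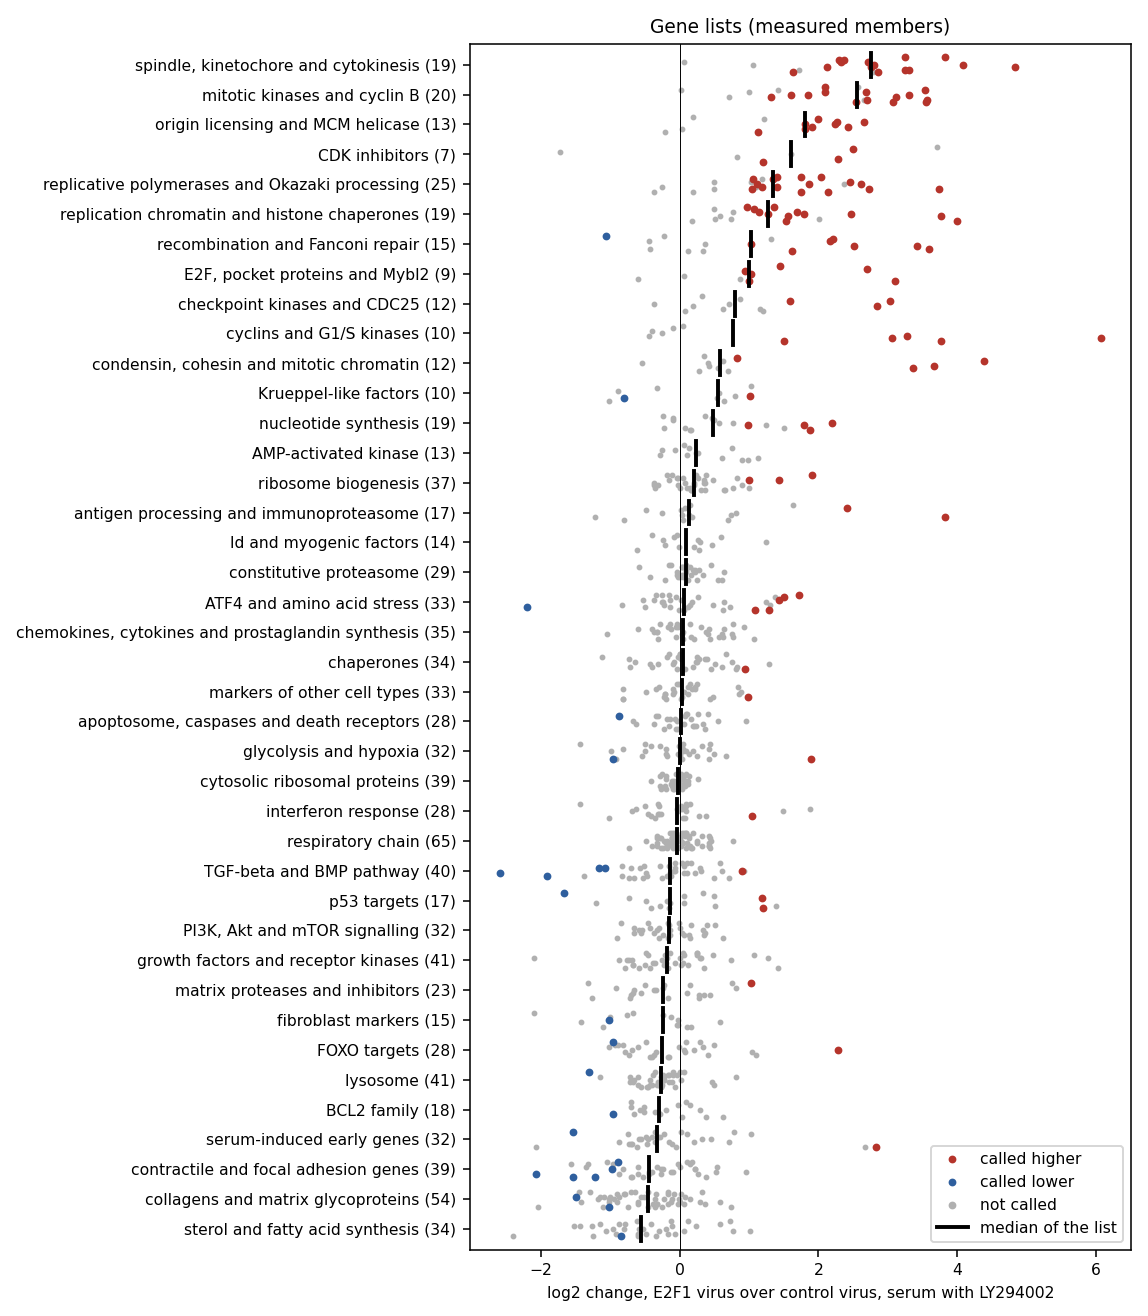
Each dot is a measured member of 1 of 40 gene lists, at its log2 change with LY294002, E2F1 over control virus; red dots were called higher, blue lower and grey neither, and the black bar is the median, with lists ordered by it. The spindle list has the highest median (2.76) and sterol synthesis the lowest (-0.56), while ribosomal proteins, respiratory chain and proteasome lie within 0.1 of 0 when all arrays are used.

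Whether E2F1 acted differently with LY294002 than without it was tested as the difference of the changes. Limma called 0 of 15866 (0.0%), with 998 at an unadjusted p under 0.05 where 793.3 would be reached without any change in the data, and a smallest adjusted p of 0.2299. Against deprivation, for which 1 control virus array exists, it called 0 (0.0%), with 1064 at an unadjusted p under 0.05. In the alternatives tried the count against serum was 0, except for 1 call when control virus array 1 with LY294002 was left out. Across 10411 genes the change with LY294002 and that without it correlated at 0.63 (Pearson) and 0.52 (Spearman); they share no array, and genes are not independent replicates. Among probe sets called with LY294002, chosen by that call, 583 of 600 and 233 of 258 had the same sign without it. Median changes of the mitotic lists were 2.56 and 2.76 with LY294002 against 1.83 and 1.91 without it. Their level in E2F1 cells was 9.73 and 10.0 with the inhibitor and 9.81 and 10.1 without it as the median log2 level, while in control virus cells it was 7.63 and 7.31 with LY294002 and 8.03 and 8.06 without it. The control arrays without LY294002 differed from each other: Mki67 had 185 and 849.5 there, Kif18b 73.6 and 396.5, and Top2a 265 and 871, against 194 and 72.7, 106 and 15.1, and 264 and 136.5 on the control virus arrays with LY294002. For Mki67, Kif18b and Top2a the first control array without LY294002 thus lay near or below the first with it, and the second was the higher. No test was made of these levels here.

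Among genes with the smallest p for the difference from serum, Cpa1, carboxypeptidase A1, had 43.5 and 32.3 in E2F1 cells with LY294002 against 7.27 and 11.6 in control virus cells, and 4.19 and 7.05 against 28.3 and 29.6 without it (difference 2.14 ± 0.26, adjusted p = 0.2553). Cryl1, a crystallin-related dehydrogenase, had 376 and 549 against 47.1 and 24.1 with the inhibitor, and 390 and 475 against 343 and 270.5 without it (2.75 ± 0.39, adjusted p = 0.2553). Its E2F1 arrays were alike in both media and its control arrays were low with LY294002. Traf2, an adaptor of tumour necrosis factor receptors, and Map4k2, a kinase of the stress pathway, differed by 2.47 ± 0.35 and 2.38 ± 0.32. Arpp21 had 43.4 and 45.7 against 159.9 and 108 with LY294002, and 144 and 130 against 53.1 and 74.1 without it (-2.24 ± 0.31). Cul4a had 299 and 282 against 347 and 304 without the inhibitor, so the difference was -1.91 ± 0.33. None passed the threshold. Against deprivation the smallest p values belonged to Acta1 and Maf (3.30 ± 0.31 and 3.25 ± 0.33, adjusted p = 0.07955 for both), and they rest on the single deprived control virus array, with 120 and 60.3.

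**Figure D5:**
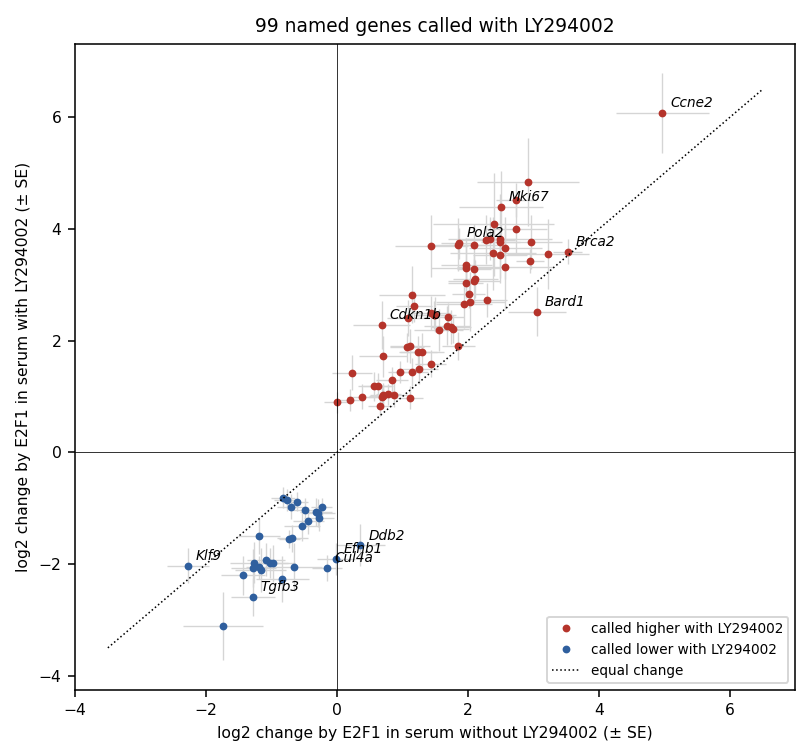
Each of 99 genes named by size of change or by list and called with LY294002 is placed by its log2 change by E2F1 in serum without the inhibitor (horizontal) and with it (vertical), E2F1 over control virus, with bars of 1 standard error; red was called higher and blue lower with LY294002, and the dotted line marks equal change. Most red points lie above the line, which the choice of genes by their call with LY294002 favours, with Bard1 (2.52 with and 3.05 without) under it.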

How the data were processed

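The authors deposited 1 signal intensity for each probe set of an array, on a linear scale. MAS5 and RMA appear in the submitters' processing notes, with no version and no role. Of 15923 probe sets, 57 controls were left out. Log2(signal + 16) of the other 15866 went into limma 3.58.1 (R 4.3.3; lmFit, then eBayes, no trend) as 1 mean per group over 6 groups and 11 arrays, which left 5 residual degrees of freedom. Arrays were not rescaled, since their medians differed by less than 0.5. Tests were two-sided, with Benjamini-Hochberg adjustment and a threshold of 0.05. The annotation gives 1 symbol for 12783 probe sets, several for 312 and none for 2771. The number of arrays limits the precision. The steps were also run on simulated data with independent noise and equal spread in all groups. Such data lack the shared deviation and larger spread of the arrays with LY294002, so that run does not bear on either. The members and the lists were chosen with earlier results of these data known. Named genes are first the 15 largest changes in each direction among called probe sets whose arrays did not overlap between the groups. Their brighter group had to have a mean signal of at least 100. Up to 4 called members per list and direction (or the smallest p) were added. So were up to 6 genes per direction with the smallest p of each difference, and a fixed set, of which Bbc3 was not analysed here. The rule picked 8 promoter windows, of which 1 is printed whole; they held 0 E2F matches. The stretches of replication and mitotic genes were chosen after their values were seen, as were Ccnd1, Rb1, Cdkn2b, Cdkn3, Mcm2, Pcna and Ezh2. Alternatives changed the normalization, the offset, the filter, the variance model, the arrays used or the weights, or added a replicate block or RNA quality.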

Additional observations from a re-analysis of the deposited data

How the results depend on the processing

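The count of 858 called probe sets was 908 with quantile normalization, 726 with median centring, 1247 with an offset of 64 and 1183 with trend and robust settings. It was 449 with an offset of 1, 1311 with the dimmest 30% left out, 51 with array weights, 286 with RNA quality (3' minus 5') as a covariate and 0 when fitted to the 4 compared arrays alone (2070 at an unadjusted p under 0.05). Leaving out 1 array gave 192 (E2F1 array 2 with LY294002) to 1190 (E2F1 array 1 with LY294002). In between were 270 and 321 for control virus arrays 1 and 2 with LY294002, 273 for each deprived E2F1 array, and in serum 477 for each control virus array and 504 for each E2F1 array. Without array 2 of both groups with LY294002 it was 0 (3335 unadjusted), and without array 1 of both, an alternative chosen after seeing the data, 649. Same-numbered arrays of the 2 compared groups deviated together (r = 0.301). Since other groups gave -0.0223 to 0.0653 and no label names a shared source, the numbers were not treated as a pairing; with a replicate block the count was 613. The difference from serum had 0 calls, or 1 when control virus array 1 with LY294002 was left out (range 0 to 1), and that from deprivation 0 in every setting, with 706 to 1928 and 715 to 1880 at an unadjusted p under 0.05. Of 109 named called genes 0 reversed, which only the normalization settings and the RNA quality covariate could have brought about. Genes that were not called reversed as follows. With the covariate Apaf1 was 0.0322, Bcl2l11 -0.207 and Fosl1 0.0274. Without both second arrays Bcl2l11 was -0.186 and Fosl1 0.233, and without both first Nppb was -0.0808 and Gabra3 -0.0071. Leaving out single arrays gave -0.526 to 0.0766 for Apaf1, -0.205 to 0.382 for Bcl2l11, -0.959 to 0.0894 for Irs2, -0.0041 to 1.02 for Mdm2, -0.0742 to 0.186 for Nppb, -0.228 to 0.0042 for Mlana, -0.022 to 0.281 for Gabra3 and -0.398 to 0.0812 for Fosl1. The cause was not tested.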

Other observations

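Several genes with large changes stood outside the cell cycle lists. Cdca5l1 had signals of 705.5 and 702 in E2F1 cells with LY294002, against 12.9 and 18.2 in control virus cells (4.52 ± 0.31, limma adjusted p = 0.002039). Phf19, a Polycomb-associated protein, had 402.5 and 387.5 against 12.9 and 13.7, and Nup107, a nuclear pore subunit, had 435 and 500.4 against 23.4 and 18.1. Control signals of these genes lay near the offset. Samd11 had 235 and 895 against 21.8 and 19.9, with the second E2F1 array the higher. Egln1, an oxygen-sensing prolyl hydroxylase, rose 3.73-fold, with 3121 and 6454 against 1231 and 1155, while another probe set of it had a change of -0.25 and was not called.

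Lower in E2F1 cells were Acsl1, a fatty acyl-CoA synthetase, with 108 and 84.3 against 448 and 402, and Bhlhe40, a transcriptional repressor, with 232.5 and 171 against 732 and 960.0. Klf9, a Krueppel-like factor, had 14.9 and 34.6 against 184 and 114 on its called probe set. Its brightest probe set overlapped between the groups, with 752 and 2148 against 1700.0 and 1521, and was not called (-0.33 ± 0.41, adjusted p = 0.7121), and the remaining one had a change of 0.01. Efnb1, an ephrin, had 13.5 and 13.7 against 135 and 66.3. Of the Krueppel-like factor list Klf16 rose and Klf3 fell among 10 genes. The lysosomal list had 1 of 41 genes lower, Asah1, and the chaperones 1 of 34 higher, Dnajb11. Matrix protease genes had 1 of 23 called, Timp1. Over all genes 4.56% rose and 1.62% fell. With the RNA quality covariate limma called 1 lysosomal gene lower. It then called 0 genes of the Krueppel-like factor, chaperone and matrix protease lists. Limma called 0 of 14 Id and myogenic genes, 0 of 35 chemokine, cytokine and prostaglandin genes and 0 of 41 growth factor and receptor kinase genes, with 2, 4 and 8 at an unadjusted p under 0.05. Among markers of other cell types Kdr was called, with 40.1 and 42.7 against 8.91 and 17.8, the control virus signals being near the offset.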
